A study of Homo sapiens with 12 samples.

Results

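The genes described are the WNT ligands, the Frizzled receptors and the core genes of WNT signalling, measured in the medulloblastoma cell line HD-MB03 under the histone deacetylase inhibitor entinostat. Members were the probe sets whose array annotation names 1 gene only, either a WNT or FZD gene by number, or LRP5, LRP6, AXIN1, AXIN2, LEF1, TCF7L1, TCF7L2, CTNNB1, DKK1, DKK3, DVL1, DVL2, DVL3, APC or GSK3B. The rule takes in 41 of 19775 genes, measured by 96 of 54613 probe sets, and 26 of the genes have several. Probe sets of a gene are numbered here from that of the highest mean. TCF7, PORCN, WNT3 and WNT3A and FZD8 were also sought but had no probe set with a single symbol, and their values were not used here.

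HD-MB03 is a line grown from a human group 3 medulloblastoma, a childhood tumour of the cerebellum, and carries an amplified MYC gene. Its cells received 1 µM entinostat, which inhibits class I histone deacetylases, or the solvent DMSO for 24 h or 48 h, and each of the 4 groups holds 3 biological replicates on 12 Affymetrix U133 Plus 2.0 arrays. A single line in culture stands for the tumour here, without stroma or vessels. Intensities were deposited in linear form, and the lowest was 36.7. Whether a background level is left in them is not given in the sources used here, so some changes of low probe sets are also given with 30 subtracted from every value before log2.

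In canonical WNT signalling, a secreted WNT protein binds a Frizzled receptor and its co-receptor LRP5 or LRP6, and Dishevelled proteins carry the signal inward. The destruction complex of AXIN, APC and GSK3B is then held back, so that beta-catenin (CTNNB1) is no longer degraded and binds TCF and LEF factors on DNA. In the cerebellum the pathway acts in early patterning, and mutations that stabilise beta-catenin define another group of medulloblastoma than the one this line comes from.

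The label of the line was checked against marker genes. Of 8 group 3 marker genes, MYC, OTX2, NRL, IMPG2, GABRA5 and CRX lay above the level called dim below, and EYS and NPR3 did not. Of 10 markers of WNT-type medulloblastoma, 7 were dim, among them DKK1, LEF1 and WIF1, and of 7 markers of the SHH type 4 were dim. Over both times 4 of the WNT-type and 2 of the SHH-type markers were higher under entinostat, and 0 of either list lower. Of the 8 group 3 markers, 1 was higher and 4 lower. Among all genes, 21% were higher and 19.7% lower. PDLIM3 is on both the WNT-type and the SHH-type list. All 4 astrocyte markers (GFAP, AQP4, S100B, ALDH1L1), all 4 immune markers measured and all 4 endothelial markers were dim, as were 5 of 6 fibroblast markers and 3 of 4 epithelial ones. The summed intensity of the group 3 markers was 18480 to 19829 under entinostat and 21676 to 24586 under DMSO at 24 h, and 22267 to 22800 against 24378 to 26003 at 48 h. That of the endothelial markers was 315 to 340 under entinostat and 246 to 270 under DMSO at 24 h, and 282 to 299 against 258 to 259 at 48 h. For the epithelial markers the sums were 322 to 331 against 265 to 293 at 24 h, and 367 to 430.0 against 261 to 286 at 48 h. What part these shifts had in the changes of the WNT genes was not tested. In such bulk RNA, fewer cells expressing a gene and less RNA per cell cannot be told apart. Array medians ranged from 80.6 to 81.8, and 59 of the 96 members were dim, meaning a mean log2 intensity under 7 in each of the 4 groups, against 63.6% of all probe sets.

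Under entinostat the Frizzled receptors FZD7, FZD1, FZD6 and FZD10 and the Dickkopf gene DKK3 rose, by up to 1.47 on the log2 scale over both times. The 3 Dishevelled genes, AXIN1, TCF7L1 and TCF7L2 fell, as did the ligand WNT5B on 1 of its 3 probe sets, all dim. Log2 fold changes of their probe sets of highest mean were -0.68 to -0.34. Most ligand probe sets were dim. Of all 32 ligand probe sets, 28.1% passed over both times (adjusted p under 0.05 in limma), against 32.7% of all probe sets. At 24 h, 21 of the 96 probe sets were higher and 15 lower than under DMSO (adjusted p under 0.05 in limma over all probe sets), where 12.8% of all probe sets were higher and 12.4% lower, so that 37.5% of the members and 25.2% of all probe sets passed. At 48 h, 19 were higher and 15 lower, against 12.9% and 13.2% of all, or 26.1% together. The 2 times have their own DMSO arrays and share none. With both times in 1 model, 24 were higher and 18 lower, against 15.7% and 17% of all, or 32.7% together. The median log2 fold change over both times was 0.00 among the members and -0.02 among all probe sets. Among the 37 members that were not dim, 12 were higher and 13 lower over both times, against 29.6% and 32.5% of all such probe sets, that is 67.6% against 62.1% in either direction.

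Calls were then counted by role. Over both times, 15.7% of all probe sets were higher and 17% lower. Of 23 receptor and co-receptor probe sets, 10 were higher and 1 lower, counting FZD1 3 times and FZD7 and LRP6 2 times each. Of 32 ligand probe sets, 4 were higher and 5 lower. Dim were 9 of the 23 and 29 of the 32, so that role and signal level are mixed here. Among those not dim, 7 of 14 receptor probe sets were higher and 0 lower, and of 3 for ligands 0 were higher and 2 lower. The shares of all probe sets not dim were 29.6% higher and 32.5% lower. Of 20 probe sets for Dishevelled and the destruction complex, 3 were higher and 5 lower. Of 14 for beta-catenin and the TCF/LEF factors, 3 were higher and 7 lower, counting TCF7L2 6 times among the lower. CTNNB1 counts 2 times among the higher. By gene, 2 of these 4 were higher and 2 lower. Of 7 probe sets for DKK1 and DKK3, 4 were higher and 0 lower, and all 4 are of DKK3. At both single times, 16 of the 96 probe sets were higher, 12 lower and 0 opposite, against 9.45%, 8.52% and 0.181% of all probe sets. A further 8 passed at 24 h alone and 6 at 48 h alone, against 7.05% and 7.94% of all. Counted by the probe set of highest mean, 12 of the 41 genes rose and 11 fell over both times, with 18 not called, against 21% and 19.7% of all genes.

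**Figure D1:**
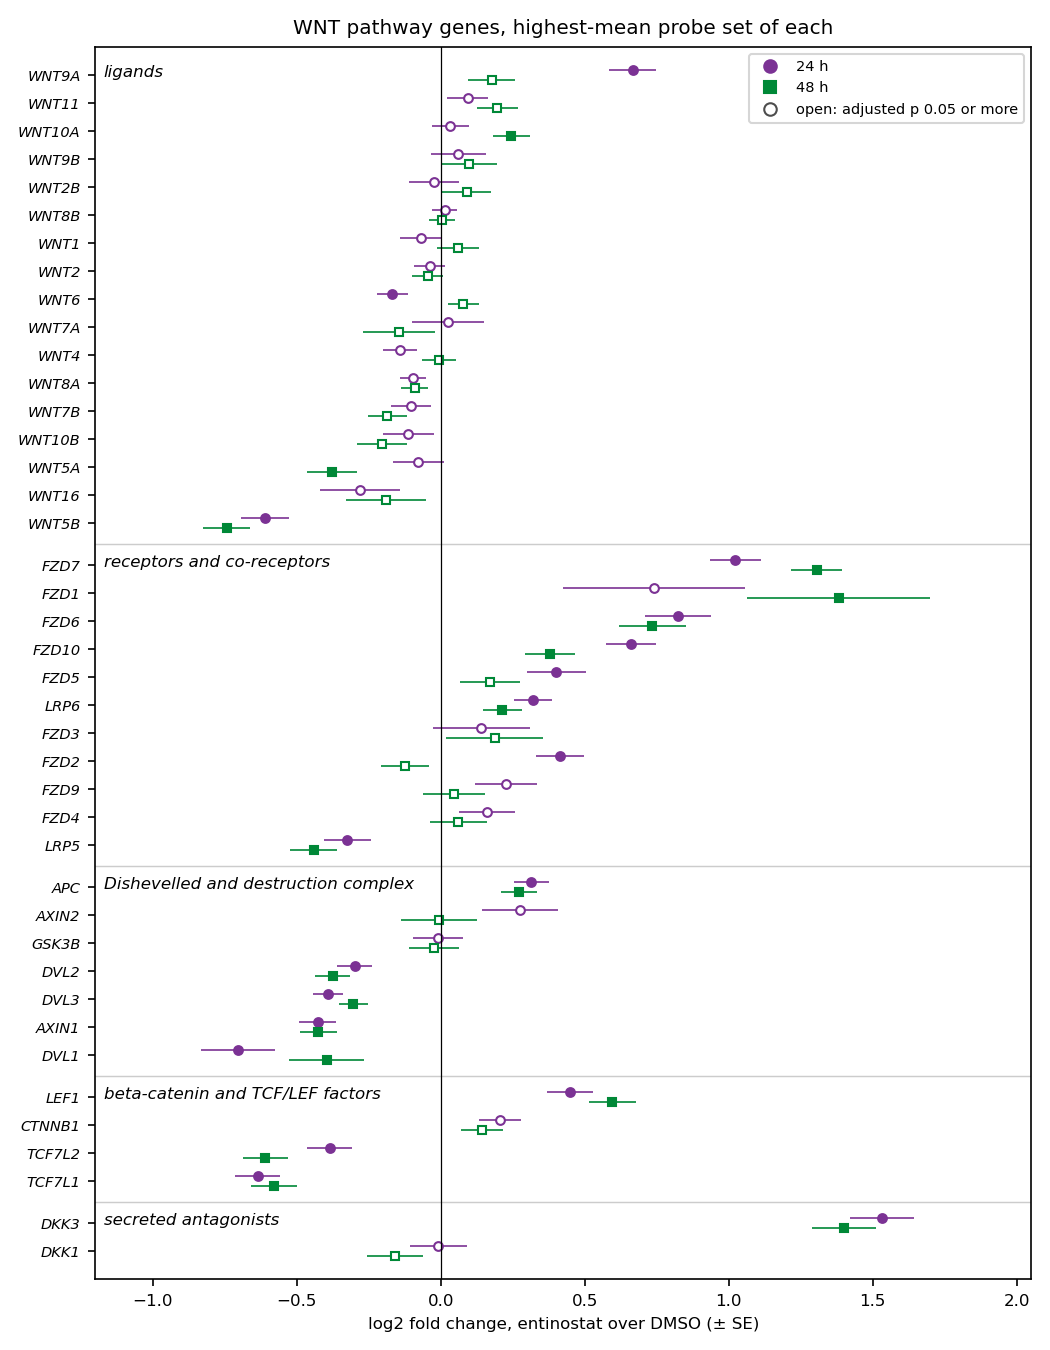
Log2 fold changes of the 41 genes (1 row each, probe set of highest mean), entinostat over DMSO, at 24 h (circles) and 48 h (squares), with standard errors from limma and filled symbols for an adjusted p under 0.05. DKK3, FZD7, FZD1 and FZD6 lie farthest right over both times, and WNT5B, TCF7L1, DVL1 and TCF7L2 farthest left.

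Arrays of entinostat and DMSO did not overlap for 24 members on the higher side and 22 on the lower side at 24 h, against 17.4% and 21.5% of all probe sets. At 48 h they did not overlap for 22 and 18 members, against 17.4% and 20.5%. With an absolute log2 fold change of 1 or more, 3 of the 96 members passed at 24 h and 4 at 48 h. The shares of all probe sets were 2.07% and 2.37%. These members belong to DKK3, FZD7 and FZD1, and so small a number does not support a comparison of shares.

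Most ligand genes gave low values, and 29 of their 32 probe sets were dim. WNT5B, a ligand of beta-catenin-independent signalling, fell. Its probe set 1 read 80.4, 78.8 and 83.3 under entinostat at 24 h, against 127, 109 and 136 under DMSO. At 48 h it read 70.7, 73.9 and 75.1 under entinostat, against 112, 133.1 and 124 under DMSO. All entinostat arrays lay below all DMSO arrays. The log2 fold change was -0.61 at 24 h (SE 0.08, adjusted p = 1.35e-04) and -0.74 at 48 h (SE 0.08, adjusted p = 2.35e-05). The other 2 probe sets of WNT5B did not pass, with 0.07 and 0.01 at 24 h and -0.10 and -0.05 at 48 h.

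WNT5A, the close relative of WNT5B and the best known ligand of planar cell polarity and calcium signalling, fell at 48 h. On probe set 1 its intensity was 195, 181 and 189 under entinostat and 202, 174 and 224 under DMSO at 24 h, where the arrays overlapped. After 48 h the intensities were 167, 158 and 179.5 under entinostat and 233, 217 and 205 under DMSO, without overlap. This was a log2 fold change of -0.08 at 24 h (SE 0.09, adjusted p = 0.608) and -0.38 at 48 h (SE 0.09, adjusted p = 0.00614). Probe set 2 had -0.10 at 24 h and -0.54 at 48 h (adjusted p = 0.00245). The interaction of treatment and time tests whether the effect of entinostat differs between both times. It did not pass on either probe set (adjusted p = 0.328 and 0.236 in limma). Over both times the value of probe set 1 was -0.23, a call lost without DMSO replicate 3 at 24 h, DMSO replicate 1 or 2 at 48 h, or entinostat replicate 1 or 2 at 48 h (adjusted p = 0.0615 to 0.0684).

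WNT9A, a ligand known from joint and skeletal development, was higher at 24 h. Probe set 1 read 85.5, 85.5 and 98.6 under entinostat at 24 h, against 53.6, 58.3 and 57.9 under DMSO. For 48 h the arrays gave 62.3, 75.5 and 63.0 under entinostat, against 58.5, 58.6 and 59.9 under DMSO. The groups were apart at both times, widely at 24 h and narrowly at 48 h. The log2 fold change was 0.67 at 24 h (SE 0.08, adjusted p = 4.96e-05) and 0.18 at 48 h (SE 0.08, adjusted p = 0.142), with an adjusted p of 0.0633 for the interaction. Its other probe set had -0.05 and -0.06. Both WNT9A and WNT5B read under the dim level, and with 30 subtracted the change of WNT9A over both times was 0.75 instead of 0.42.

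WNT2B, a canonical ligand, had 4 dim probe sets. Of these, the third by mean read 72.8, 69.1 and 71.4 under entinostat at 24 h, against 58.0, 57.6 and 59.3 under DMSO, a log2 fold change of 0.29 (adjusted p = 7.36e-04). At 48 h the intensities were 60.5, 62.6 and 61.7 under entinostat and 57.0, 61.9 and 58.6 under DMSO, with overlap (0.06, adjusted p = 0.461). Over both times its change was 0.17, and 0.33 with 30 subtracted. The fourth rose at both times (0.30 and 0.28), although its call at 48 h was lost without DMSO replicate 3, entinostat replicate 2 or entinostat replicate 3 (adjusted p = 0.0556 to 0.066). The other 2 probe sets, that of highest mean among them, did not pass.

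Smaller changes were called for 5 further ligands. WNT10A was higher at 48 h on 1 of 2 probe sets (0.24, adjusted p = 0.0129), a call lost without DMSO or entinostat replicate 2 (adjusted p up to 0.0568), and had 0.03 at 24 h. WNT6, its neighbour on the chromosome, was lower at 24 h on 1 of 4 probe sets (-0.17, adjusted p = 0.0358), which had 0.08 at 48 h. The other 3 did not pass and had -0.01, -0.02 and 0.15 at 24 h. In 12 refits without 1 array each, this call of WNT6 failed 5 times, without DMSO replicate 1, 2 or 3 or entinostat replicate 1 or 2 of 24 h (adjusted p up to 0.106). WNT11 (0.14), WNT7B (-0.14, on 1 of 2 probe sets) and WNT8A (-0.09) passed over both times and at neither single time, and leaving out 1 array ended these calls in 9, 6 and 10 of 12 refits. WNT1, WNT2, WNT4, WNT7A, WNT8B, WNT9B, WNT10B and WNT16 passed in no comparison on any probe set. WNT10B, which neighbours WNT1 on its chromosome, was the one ligand besides WNT5A with a probe set above the dim level, and its log2 fold change was -0.11 at 24 h and -0.20 at 48 h. In all, 21 ligand probe sets gave no call in any comparison, with log2 fold changes of -0.24 to 0.08 over both times.

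FZD7, a Frizzled receptor linked to stem cells and to tumours of the gut and liver, had the largest change among receptors over both times (1.16 on the log2 scale). On probe set 1 its intensity was 975, 1110.3 and 967 under entinostat at 24 h, against 453, 497 and 556 under DMSO. The 48 h values were 1359.8, 1441 and 1321 under entinostat, against 539, 614 and 517 under DMSO. Each entinostat array lay well above each DMSO array of its time. This was a log2 fold change of 1.02 at 24 h (SE 0.09, adjusted p = 3.06e-06) and 1.31 at 48 h (SE 0.09, adjusted p = 3.73e-07), or 2.47-fold at 48 h. Its other probe set had 0.89 and 1.09. The interaction did not pass (0.28, adjusted p = 0.367).

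FZD1, a near relative of FZD7 in sequence, was higher on 3 of 3 probe sets. Probe set 1 read 751, 435 and 352 under entinostat at 24 h, against 329, 386 and 194 under DMSO, so that the groups overlapped. At 48 h it read 648, 632 and 401 under entinostat, against 273, 160.3 and 212 under DMSO, and they did not. Its standard error at 24 h was larger than that of any other member, and the log2 fold change was 0.74 at 24 h (SE 0.32, adjusted p = 0.117) and 1.38 at 48 h (SE 0.32, adjusted p = 0.00548). The 24 h change was 0.43 without entinostat replicate 1 and 0.45 without DMSO replicate 3 of that time. The dim probe sets had smaller standard errors, with 0.50 and 0.62 for probe set 2 and 0.50 and 0.43 for probe set 3, all past the threshold. With 30 subtracted, the change of probe set 3 over both times was 1.06 instead of 0.46.

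FZD6, a receptor of planar cell polarity that in some settings restrains canonical signalling, was also higher. Its probe set read 427, 428 and 489 under entinostat at 24 h, against 253, 219 and 289 under DMSO. At 48 h the values were 511, 557 and 573 under entinostat, against 286, 382 and 324 under DMSO. No array of one treatment reached those of the other at either time, and the log2 fold change was 0.82 at 24 h (SE 0.12, adjusted p = 1.62e-04) and 0.73 at 48 h (SE 0.12, adjusted p = 3.64e-04). FZD10, a receptor found mainly in embryonic tissue, read 131, 132 and 129 under entinostat at 24 h, against 82.2, 83.8 and 82.0 under DMSO. After 48 h the intensities were 109, 117 and 125 under entinostat, against 87.5, 105 and 79.2 under DMSO. The arrays did not overlap at either time, and the log2 fold change was 0.66 at 24 h (SE 0.09, adjusted p = 9.90e-05) and 0.38 at 48 h (SE 0.09, adjusted p = 0.00551).

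FZD2, in the same subfamily as FZD1 and FZD7, was higher at 24 h alone. Probe set 1 read 184, 228 and 206 under entinostat at 24 h, against 145, 155 and 163 under DMSO. For 48 h the arrays gave 140.0, 146 and 138 under entinostat, against 165, 141 and 157 under DMSO. The groups were apart at 24 h and overlapped at 48 h, with log2 fold changes of 0.41 (adjusted p = 0.00246) and -0.12 (adjusted p = 0.341). Its interaction of -0.54 had the smallest adjusted p of all members, 0.0512, just over the threshold. The other probe set gave 0.27 at 24 h, a call lost without DMSO replicate 1, DMSO replicate 2 or entinostat replicate 3 (adjusted p = 0.0663 to 0.0833), and 0.00 at 48 h. FZD5 passed at 24 h on its probe set of highest mean (0.40, adjusted p = 0.0123, and 0.0542 without DMSO replicate 2) and over both times (0.29, adjusted p = 0.0111), but not at 48 h (0.17). Probe set 2 of FZD5 did not pass. FZD3 on 4 probe sets, FZD4 on 2 and FZD9 on 1 passed in no comparison, although all FZD3 probe sets were above the dim level, with log2 fold changes of -0.09 to 0.14 at 24 h and 0.04 to 0.26 at 48 h.

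**Figure D2:**
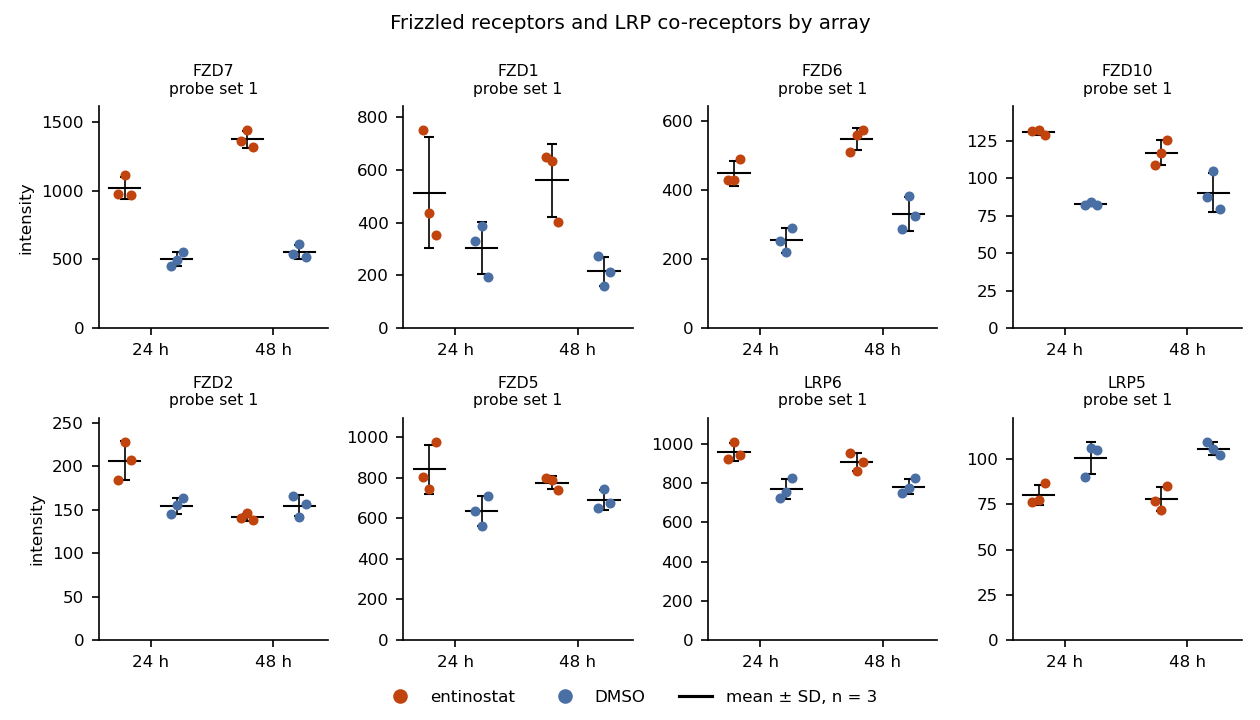
Intensity (linear scale) of 6 Frizzled receptors and of LRP6 and LRP5 on each array, with the mean and SD of 3 arrays and entinostat left of DMSO at each time. FZD7, FZD6 and FZD10 are separated at both times, FZD2 at 24 h alone, and LRP6 and LRP5 are separated in opposite directions.

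Of the co-receptors, LRP6 rose and LRP5 fell. LRP6, the co-receptor needed for canonical signalling in most tissues, read 921, 1011 and 945 under entinostat at 24 h, against 726, 753 and 825 under DMSO, a log2 fold change of 0.32 (adjusted p = 0.00284). At 48 h the intensities were 951, 861 and 908 under entinostat, against 747, 773 and 824 under DMSO (0.21, adjusted p = 0.0305). The call at 48 h was lost without DMSO replicate 1 or 2 or entinostat replicate 1 or 3 of that time (adjusted p = 0.072 to 0.112). The dim probe set 3 of LRP6 passed over both times (0.18), but not in 8 of 12 refits with 1 array left out. Probe set 2 of LRP6 passed in no comparison. LRP5, the other co-receptor, known for its part in bone mass, was dim. It read 76.5, 77.5 and 86.7 under entinostat at 24 h, against 90.3, 107 and 105 under DMSO. The 48 h values were 76.8, 72.1 and 85.4 under entinostat, against 109.8, 105 and 102 under DMSO. The arrays were apart at both times on the lower side, with log2 fold changes of -0.32 (adjusted p = 0.0104) and -0.44 (adjusted p = 0.00128), and over both times of -0.38, or -0.58 with 30 subtracted. A second LRP5 probe set had -0.13 and -0.04 and did not pass.

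All 3 Dishevelled genes, whose proteins relay the signal from Frizzled to the destruction complex, fell. DVL1 read 150.4, 166 and 152 under entinostat at 24 h, against 215, 229.7 and 334 under DMSO. At 48 h it read 168, 161 and 187 under entinostat, against 231, 227 and 221 under DMSO. The groups did not overlap, and DMSO replicate 3 at 24 h lay far above its group, without which the 24 h change was -0.51 and still passed. The log2 fold change was -0.70 at 24 h (SE 0.13, adjusted p = 0.00129) and -0.40 at 48 h (SE 0.13, adjusted p = 0.0398). The call at 48 h was lost without DMSO replicate 1, 2 or 3 of 48 h, entinostat replicate 1 or 2 of 48 h, or entinostat replicate 1 or 3 of 24 h (adjusted p = 0.051 to 0.125, log2 fold change -0.41 to -0.35).

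DVL2 read 184, 206 and 212 under entinostat at 24 h, against 243, 242 and 253 under DMSO. At 48 h the same probe set read 206, 199.8 and 206 under entinostat, against 254, 264 and 276 under DMSO. These groups were apart at both times, with log2 fold changes of -0.30 (adjusted p = 0.00230) and -0.38 (adjusted p = 4.05e-04). Its second probe set had -0.31 and -0.30 and passed over both times only (-0.31, adjusted p = 0.00627). DVL3 read 244, 250.5 and 237 under entinostat at 24 h, against 312, 329.8 and 319 under DMSO. After 48 h the intensities were 249.7, 266 and 275 under entinostat, against 324, 322 and 329 under DMSO. Its replicates were close to each other and the groups apart, with -0.39 (adjusted p = 9.25e-05) and -0.30 (adjusted p = 6.25e-04). The dim probe set 2 of DVL3 gave 0.01 and -0.13 and did not pass.

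The promoters of the 3 Dishevelled genes are shown because these paralogues fell together. Each is 250 bases before and 50 from the gene's start in RefSeq (build GRCh38.p14), 5′ to 3′ on the gene's strand, with capitals marking GGGCGG or its complement CCGCCC, the core of a GC box. DVL1 lies at chr1:1349369-1349668, minus strand, DVL2 at chr17:7234468-7234767, minus strand and DVL3 at chr3:184155127-184155426, plus strand.
DVL1: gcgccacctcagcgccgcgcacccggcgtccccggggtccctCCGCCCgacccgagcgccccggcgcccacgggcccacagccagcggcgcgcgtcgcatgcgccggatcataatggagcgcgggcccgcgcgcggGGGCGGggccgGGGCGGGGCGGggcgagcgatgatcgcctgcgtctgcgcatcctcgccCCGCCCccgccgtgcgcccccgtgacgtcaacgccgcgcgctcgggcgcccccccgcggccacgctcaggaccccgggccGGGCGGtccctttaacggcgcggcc
DVL2: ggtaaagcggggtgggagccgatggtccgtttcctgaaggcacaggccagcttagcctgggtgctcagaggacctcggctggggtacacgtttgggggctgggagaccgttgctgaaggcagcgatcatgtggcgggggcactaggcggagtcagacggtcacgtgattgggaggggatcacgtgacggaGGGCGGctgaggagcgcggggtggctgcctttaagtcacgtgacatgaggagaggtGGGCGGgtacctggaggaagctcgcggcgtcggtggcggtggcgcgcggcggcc
DVL3: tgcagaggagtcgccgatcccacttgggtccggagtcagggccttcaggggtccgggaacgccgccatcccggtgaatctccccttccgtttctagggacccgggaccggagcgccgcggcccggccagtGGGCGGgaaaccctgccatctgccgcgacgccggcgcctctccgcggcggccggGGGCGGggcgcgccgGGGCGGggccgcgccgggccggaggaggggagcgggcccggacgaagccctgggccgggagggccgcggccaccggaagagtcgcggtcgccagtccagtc
The GC content was 82.7% for DVL1, 67.0% for DVL2 and 77.7% for DVL3, against a median of 58.3% over 27305 promoters. GGGCGG was found 6 times for DVL1, where a pair of matches overlaps by 1 base, 2 times for DVL2 and 3 times for DVL3, on either strand, and at least once in 44.6% of all promoters. The E-box CACGTG, which reads the same on both strands and is the motif of MYC and related factors, occurred 3 times for DVL2, starting 90, 71 and 24 bases before the start. It was in 1 of the 30 member promoters listed and in 7.43% of all. These motifs were chosen after values had been seen, and a match describes the letters and is no evidence of binding.

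AXIN1, the scaffold of the destruction complex, fell as well. It read 125, 139 and 125 under entinostat at 24 h, against 177, 164 and 182 under DMSO. For 48 h the arrays gave 128, 131 and 121 under entinostat, against 166, 179 and 167 under DMSO. The arrays were apart at both times, with nearly the same log2 fold change of -0.43 (SE 0.06, adjusted p = 2.72e-04) and -0.42 (SE 0.06, adjusted p = 2.61e-04). APC, the tumour suppressor that the complex needs to bind beta-catenin, was higher on its probe set 1. There it read 334, 342 and 318 under entinostat and 251, 286 and 264 under DMSO at 24 h, and 299, 319 and 312 under entinostat and 269, 259 and 243 under DMSO at 48 h. No overlap was seen, and the log2 fold change was 0.31 (adjusted p = 0.00213) and 0.27 (adjusted p = 0.00543). Of the other 4 APC probe sets, all dim, probe set 4 was higher at 48 h (0.33) and the rest did not pass.

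GSK3B, the kinase that marks beta-catenin for degradation, did not pass on its probe set of highest mean (-0.01 and -0.03). GSK3B also did not pass on probe sets 2, 4 and 5. It had 0.27 and 0.30 on probe set 3, calls that were lost in 9 of 12 refits at 24 h (adjusted p up to 0.189) and, at 48 h, without DMSO replicate 1, entinostat replicate 2 or entinostat replicate 3 (adjusted p = 0.0721 to 0.114). AXIN2, a feedback inhibitor and the most used readout of canonical signalling, passed in no comparison on 4 probe sets. Probe set 1 read 153, 121 and 145 under entinostat and 106, 99.8 and 144 under DMSO at 24 h, and 107, 128 and 104 under entinostat and 111, 112 and 116 under DMSO at 48 h. Both times showed overlap, with log2 fold changes of 0.27 (SE 0.13, adjusted p = 0.167) and -0.01 (SE 0.13, adjusted p = 0.984). Leaving out 1 array moved the 24 h change of probe set 1 to between 0.17 and 0.43, and it passed without DMSO replicate 3 of that time (0.43, adjusted p = 0.014). The 4 probe sets ranged from -0.19 to 0.27 at 24 h and from -0.11 to 0.10 at 48 h.

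CTNNB1, which encodes beta-catenin, was slightly higher. Its probe set 1 read 2976, 3478 and 3380.1 under entinostat at 24 h, against 2832, 2964 and 2719 under DMSO. At 48 h the intensities were 2833, 3234 and 2759 under entinostat, against 2608, 2691 and 2670.2 under DMSO. All entinostat arrays lay above the DMSO arrays of the same time, by little. This was a log2 fold change of 0.21 at 24 h (SE 0.07, adjusted p = 0.0616) and 0.14 at 48 h (SE 0.07, adjusted p = 0.197), and it passed over both times (0.17, SE 0.05, adjusted p = 0.0177). The 24 h change passed too with dim probe sets left out (adjusted p = 0.0361), after quantile normalization (0.042), with a trended and robust prior (0.0425), and without entinostat replicate 1 at 24 h (0.0189) or entinostat replicate 2 at 48 h (0.0347). Without that last array the change at 48 h was 0.07. Probe set 2 had 0.24 and 0.31, both past the threshold. Its call at 24 h was lost without DMSO replicate 1 or 3 or entinostat replicate 1 or 2 of that time (adjusted p = 0.0576 to 0.114). The third probe set did not pass.

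The factors that beta-catenin binds on DNA differed among themselves. TCF7L1, which mostly represses WNT targets in the absence of a signal, read 259, 267 and 283 under entinostat at 24 h, against 447, 373 and 441 under DMSO. The 48 h values were 317, 280.2 and 309 under entinostat, against 458, 473 and 423 under DMSO. The groups were far apart at both times, and the log2 fold change was -0.64 (SE 0.08, adjusted p = 6.35e-05) and -0.58 (SE 0.08, adjusted p = 1.21e-04). TCF7L2, the main TCF of the intestine and also active in the developing brain, read 818, 893 and 904 under entinostat at 24 h, against 1055, 1149 and 1214 under DMSO. At 48 h it read 702, 844 and 798 under entinostat, against 1142, 1176 and 1249 under DMSO. It too was lower without overlap at both times (-0.39, adjusted p = 0.00249, and -0.61, adjusted p = 6.94e-05). Over both times, 6 of its 7 probe sets were lower, with changes of -0.50 to -0.24, and probe set 7 had -0.12 and passed at 48 h alone (-0.20). Single-time calls of 4 of these TCF7L2 probe sets were lost in 4 to 8 of 12 refits that left out 1 array.

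LEF1, which in contrast to TCF7L1 acts mainly as an activator, was higher on 1 of 3 dim probe sets. There, on probe set 1, it read 84.6, 82.0 and 73.6 under entinostat at 24 h, against 56.1, 60.1 and 59.6 under DMSO. After 48 h the intensities were 83.3, 105 and 91.5 under entinostat, against 59.2, 61.9 and 63.2 under DMSO. The arrays did not overlap, and the log2 fold change was 0.45 (SE 0.08, adjusted p = 0.00113) and 0.60 (SE 0.08, adjusted p = 1.16e-04). Over both times it was 0.52, and 0.90 with 30 subtracted. The other 2 probe sets had -0.29 and 0.14 at 24 h and -0.02 and 0.12 at 48 h.

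**Figure D3:**
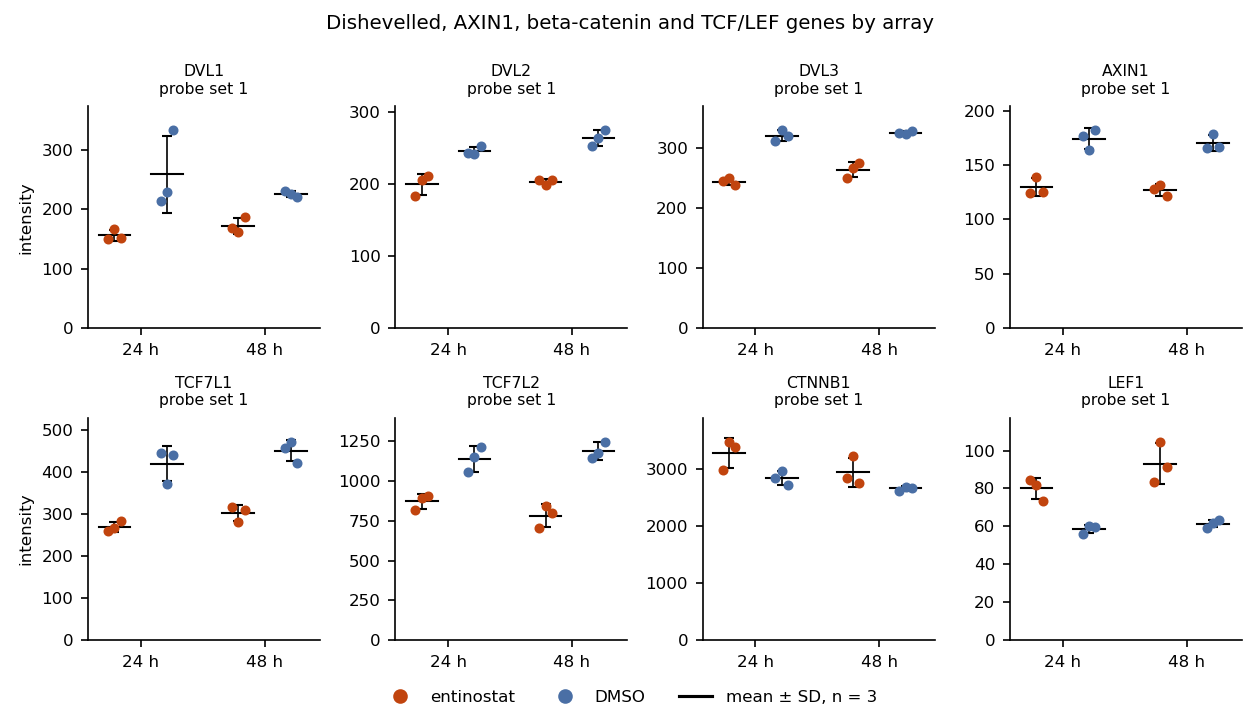
Intensity (linear scale) of the Dishevelled genes, AXIN1, TCF7L1, TCF7L2, CTNNB1 and LEF1 on each array, with the mean and SD of 3 arrays and entinostat left of DMSO at each time. The Dishevelled genes, AXIN1, TCF7L1 and TCF7L2 are lower on every entinostat array than on the DMSO arrays of the same time, and CTNNB1 and LEF1 are higher.

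The promoters of LEF1 and TCF7L2 are shown as those of TCF/LEF genes whose probe sets of highest mean changed in opposite directions. For LEF1 this was 1 of 3 dim probe sets. GC boxes are marked in the same way. LEF1 lies at chr4:108166252-108166551, minus strand, and TCF7L2 at chr10:112949997-112950296, plus strand.
LEF1: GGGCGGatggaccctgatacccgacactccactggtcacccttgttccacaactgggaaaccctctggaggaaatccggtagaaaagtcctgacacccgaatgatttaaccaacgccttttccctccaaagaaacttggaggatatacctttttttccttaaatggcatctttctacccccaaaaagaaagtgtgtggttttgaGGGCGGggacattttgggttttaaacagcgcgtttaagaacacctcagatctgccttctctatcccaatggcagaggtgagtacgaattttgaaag
TCF7L2: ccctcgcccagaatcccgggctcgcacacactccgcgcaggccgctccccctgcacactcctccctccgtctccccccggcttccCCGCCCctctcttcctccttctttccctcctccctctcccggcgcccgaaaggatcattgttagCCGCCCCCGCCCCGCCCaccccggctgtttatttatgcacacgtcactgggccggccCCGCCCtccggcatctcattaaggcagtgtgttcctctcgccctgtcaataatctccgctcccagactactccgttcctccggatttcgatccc
GC content was 47.0% for LEF1 and 65.7% for TCF7L2, with 9 and 25 CpG dinucleotides and 2 and 5 GC boxes. A promoter was listed for 30 of the 41 genes, and AXIN2, DKK3, FZD2, FZD3, FZD6, FZD7, FZD10, LRP6, WNT7B, WNT10B and WNT11 had none. The 30 promoters had a median GC content of 73.8%, against 58.3% over all. This median was 69.8% for the 6 genes higher, 70.7% for the 10 lower and 75.2% for the 14 not past the threshold over both times, and GC boxes were in 25 of the 30.

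DKK3, a secreted member of the Dickkopf family that is often silenced in tumours, showed the largest log2 fold change of all members over both times. Its probe set 1 read 172, 157 and 151 under entinostat at 24 h, against 63.6, 46.0 and 57.6 under DMSO. For 48 h the arrays gave 138, 167 and 141 under entinostat, against 56.5, 53.0 and 59.4 under DMSO. Every entinostat array was above 2 times every DMSO array of its time. The log2 fold change was 1.53 at 24 h (SE 0.11, adjusted p = 7.16e-07) and 1.40 at 48 h (SE 0.11, adjusted p = 1.28e-06), and over both times 1.47, or 2.29 with 30 subtracted.

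The 6 DKK3 probe sets gave calls in both directions. Higher at both times were also probe set 2 (1.00 and 0.93), probe set 3 (0.67 and 0.51) and probe set 4 (0.27 and 0.34). The call of probe set 4 at 24 h was lost without DMSO or entinostat replicate 2 (adjusted p up to 0.0608). Probe set 5, near the lowest values of the arrays, read 46.5, 47.7 and 47.6 under entinostat and 52.4, 53.1 and 52.9 under DMSO at 24 h. It was lower there (-0.16, adjusted p = 0.0217, lost without DMSO replicate 2, DMSO replicate 3 or entinostat replicate 1) and had -0.04 at 48 h. DKK3 was thus the 1 gene with called probe sets in opposite directions at a time. The last, probe set 6, did not pass (-0.07 and -0.15).

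**Figure D4:**
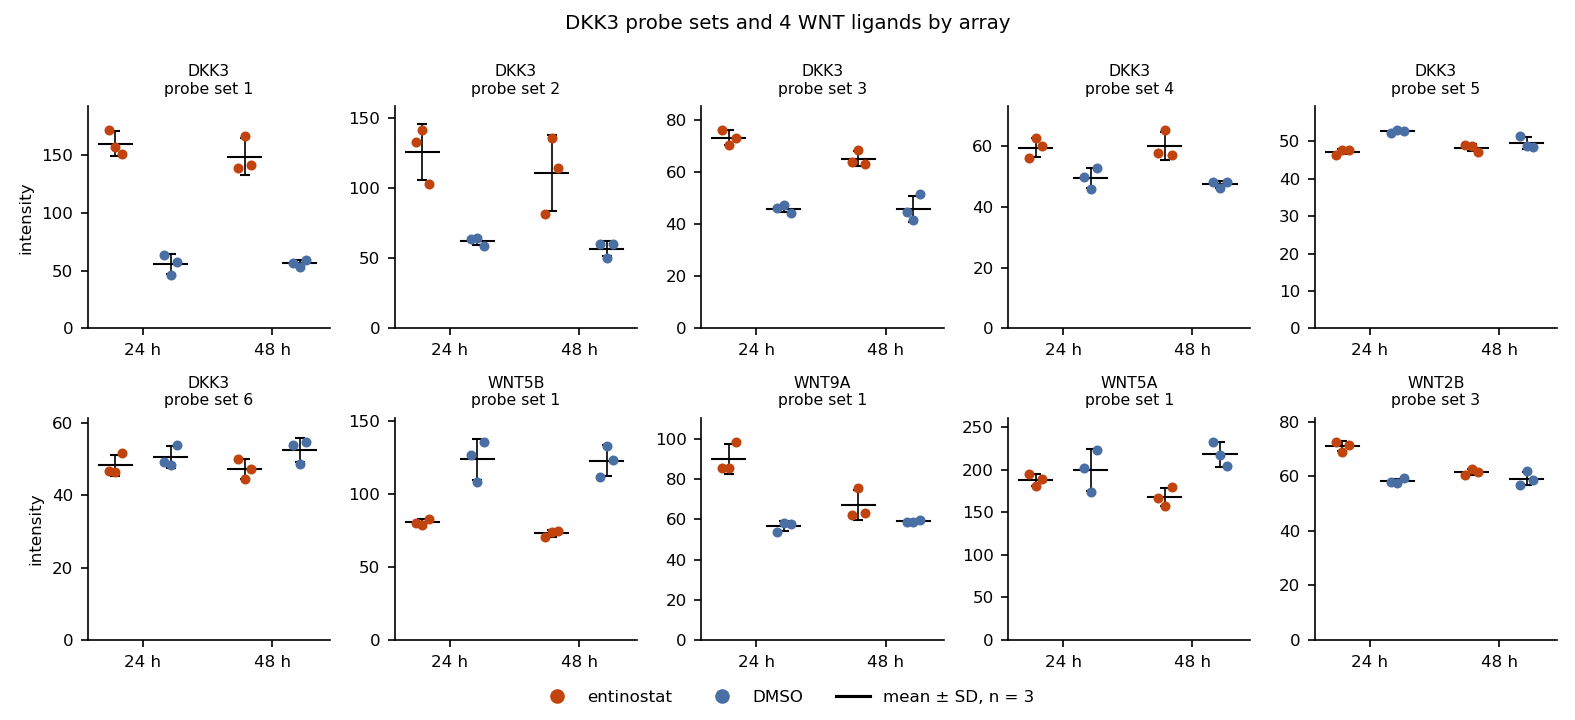
Intensity (linear scale) of the 6 DKK3 probe sets and of 1 probe set each of WNT5B, WNT9A, WNT5A and WNT2B on each array, with the mean and SD of 3 arrays and entinostat left of DMSO at each time. Of the DKK3 probe sets, 4 are higher under entinostat at both times, and WNT5B is lower at both times.

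DKK1, the founding Dickkopf inhibitor, which binds LRP5 and LRP6 and is itself a WNT target, was dim. It read 56.7, 59.6 and 60.0 under entinostat at 24 h, against 52.7, 68.2 and 57.4 under DMSO, and 55.8, 60.6 and 47.5 under entinostat at 48 h, against 59.9, 62.7 and 59.6 under DMSO. The groups overlapped at both times (-0.01 and -0.16, adjusted p = 0.968 and 0.295). Its promoter, at chr10:52314031-52314330, plus strand, is shown because it was the 1 of 30 with the TCF/LEF core CTTTGA or its complement TCAAAG, in capitals.
DKK1: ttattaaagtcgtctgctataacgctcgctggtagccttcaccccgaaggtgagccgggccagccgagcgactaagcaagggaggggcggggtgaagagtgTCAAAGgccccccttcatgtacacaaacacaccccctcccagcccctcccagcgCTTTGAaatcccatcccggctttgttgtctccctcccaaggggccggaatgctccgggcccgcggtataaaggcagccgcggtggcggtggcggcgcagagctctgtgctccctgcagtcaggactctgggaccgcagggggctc
The matches start 149 and 95 bases before the start. The core was in 13.1% of all promoters.

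Time was also tested alone. Between DMSO at 48 h and DMSO at 24 h, 0 of the 96 probe sets passed, against 0.359% of all, and 4 had an unadjusted p under 0.05 in limma, against 11% of all. The interaction of treatment and time passed for 0 of 96, against 1.21% of all, and 12 had an unadjusted p under 0.05, against 12.8% of all.

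Further genes of the pathway were taken from 6 lists with 115 genes, of which 112 were measured, each by its probe set of highest mean. Over both times 36 of them rose, 24 fell and 52 were not called, against 21% and 19.7% of all genes. Their median log2 fold change was 0.01, and 37 of the 112 were dim. Among 15 genes of secretion, agonists and receptor turnover, 2 were higher and 2 lower. WLS, the carrier that WNT proteins need for secretion, read 499, 587 and 496 under entinostat at 24 h, against 688, 590.0 and 679.7 under DMSO, and 396, 419 and 453 under entinostat at 48 h, against 636, 644 and 668 under DMSO. It was lower at both times (-0.31 and -0.62, adjusted p = 0.0137 and 8.69e-05), without overlap at either time. Its call at 24 h was lost without DMSO replicate 1 or 3 or entinostat replicate 1 or 3 (adjusted p = 0.0549 to 0.0586). LGR6, a receptor of R-spondins, had 0.30 over both times, KREMEN2, a receptor of DKK1, -0.20, and NOTUM, which removes the lipid from WNT proteins, 0.16, the last lost in 8 of 12 refits.

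Of 18 antagonists and feedback inhibitors, 7 were higher and 1 lower, against 21% and 19.7% of all genes. APCDD1, a membrane inhibitor of WNT signalling and itself a target, read 382, 383 and 477 under entinostat at 24 h, against 914, 929 and 976 under DMSO. At 48 h the intensities were 283, 409 and 302 under entinostat, against 1063, 1236 and 1176 under DMSO, so that the groups lay far apart (-1.19 and -1.82, adjusted p = 1.67e-05 and 4.31e-07). TPBG, which inhibits WNT signalling at the membrane, rose by 1.44 and 1.47 on the log2 scale. DACT3 and NKD1, inhibitors that bind Dishevelled, rose by 0.97 and 0.75 and by 0.68 and 0.64. Most of this list was dim (12 of 18).

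In the list of destruction complex and cytoplasmic kinases, 4 of 20 genes were higher and 9 lower, against 21% and 19.7% of all genes. Dim were 3 of the 20. Among all probe sets not dim, 29.6% were higher and 32.5% lower. CSNK1D, a casein kinase, fell (-0.47 and -0.70), as did PPP2R1A, a scaffold subunit of the phosphatase PP2A (-0.42 and -0.46). CSNK1A1, the casein kinase that first phosphorylates beta-catenin, rose (0.32 and 0.34). CSNK1G2, which can phosphorylate LRP6, had -0.41 over both times, a call lost in 7 of 12 refits. Of 21 nuclear cofactors, 6 were higher and 6 lower, and 2 were dim. The corepressors split, since CTBP1 fell (-0.75 and -1.06) while TLE1 (1.00 and 0.70) and TLE4 (0.79 and 0.81) rose. PYGO1, a coactivator that joins beta-catenin through BCL9, fell (-0.69 and -0.38).

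Of 26 genes of beta-catenin-independent signalling, 13 were higher and 5 lower, against 21% and 19.7% of all genes. Dim were 5 of the 26, against 63.6% of all probe sets. Among all probe sets not dim, 29.6% were higher and 32.5% lower. ANKRD6, which binds Dishevelled, rose (0.87 and 0.87), as did SDC4, a heparan sulfate co-receptor (0.95 and 0.67), and ROR1, a receptor of WNT5A (0.66 and 0.84). VANGL2, a core protein of planar cell polarity, fell (-0.61 and -1.06). Of 12 reported target genes of the pathway, 4 were higher and 1 lower. BAMBI, an inhibitor of TGF-beta signalling, rose (1.74 and 1.63), as did ID2, an inhibitor of helix-loop-helix factors (1.08 and 1.79). CD44, a hyaluronan receptor, fell (-1.44 and -1.66). CCND1, which encodes cyclin D1, was dim and had 0.17 over both times. All of these genes are also under the control of other pathways.

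**Figure D5:**
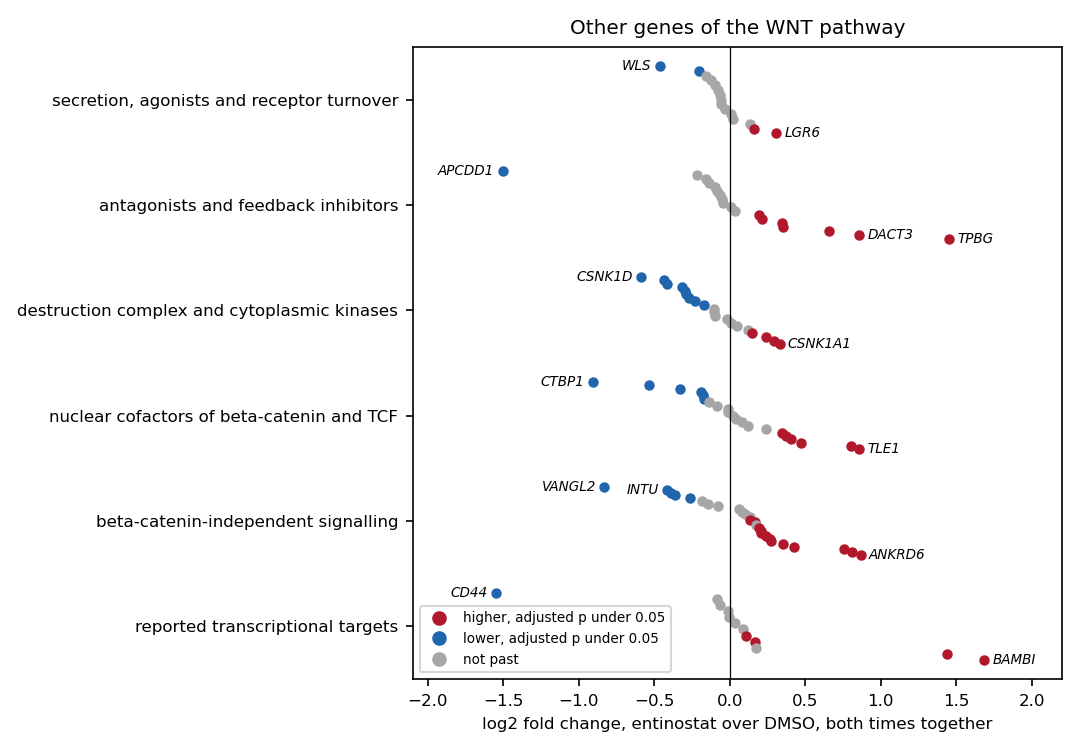
Log2 fold change over both times, entinostat over DMSO, of the 112 genes of 6 further pathway lists, 1 point per gene, in red or blue where it was higher or lower at an adjusted p under 0.05. APCDD1 and CD44 lie farthest left, and BAMBI, TPBG and ID2 farthest right.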

How the data were processed

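RNA of HD-MB03 cells was hybridised to 12 Affymetrix U133 Plus 2.0 arrays, 3 per group. The authors normalised the arrays with GCRMA, whose version is not given in the sources used here. The deposited intensities are linear (36.7 to 20146) and were turned into log2 values here, although the methods of the study name log2 values. Probe sets took their gene symbols from the platform annotation. Of 54675 probe sets, 62 controls were left out, and 41091 of the other 54613 had 1 symbol, 1801 several and 11721 none. No depth exists for arrays, and the 3 arrays per group limit the precision.

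All 54613 probe sets were fitted with limma 3.58.1 in R 4.3.3 (lmFit and eBayes), with 1 coefficient per group, and for both times together with treatment plus time. P-values were adjusted by Benjamini-Hochberg across the whole table (threshold 0.05). The procedure was tested on simulated data. The replicates are biological by the methods of the study, the titles give a number only, and the p-values measure the spread between them. Replicate numbers were not used as a block, because same-numbered arrays did not all deviate together. Gene counts take the probe set of highest mean.

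Members, pathway lists and markers were chosen with earlier results of these data known. All members were accounted for by gene. Values of every array are given for up to 4 genes per role. These had the largest change over both times among those past the threshold and without overlap at 1 time at least. Such values are also given for AXIN2, LEF1 and CTNNB1, and for genes with probe sets in opposite directions. Values of FZD2, APC, LRP6, LRP5, DKK1, WLS and APCDD1 lie outside this rule and were added after they had been seen. Of other lists, up to 4 genes were named. GC boxes and E-boxes in RefSeq promoters were searched for after values had been seen, TCF/LEF cores by the original plan. Alternatives changed the filter on dim probe sets, background, scaling, design, prior, probe sets, threshold and arrays.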

Additional observations from a re-analysis of the deposited data

Results flagged for a closer look

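CSNK1G1, which encodes a casein kinase 1 of the gamma type that can phosphorylate LRP6, was taken up because its response differed between both times. Its probe set of highest mean read 202, 214 and 215 under entinostat at 24 h, against 172, 159 and 192 under DMSO. At 48 h it read 215, 213 and 216 under entinostat, against 321, 265 and 316 under DMSO. The groups did not overlap at either time and lay in opposite order. Under entinostat the intensities were alike at both times, and under DMSO they were higher at 48 h. The log2 fold change was 0.28 at 24 h and -0.48 at 48 h, and the interaction of treatment and time was -0.76 (adjusted p = 0.011 in limma). An interaction passed for this 1 of the 112 further pathway genes, against 1.92% of all genes.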

How the results depend on the processing

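No count of member probe sets moved by over 1.5 times except under the settings given here. Leaving out dim probe sets before the fit left 12 higher calls at 24 h, 10 at the later time and 12 over both, since fewer probe sets were then tested, and gave 1 interaction, that of FZD2 (-0.54, adjusted p = 0.0290). Normexp background correction with an offset of 50 (-0.51, adjusted p = 0.0478) and median centring (-0.55, adjusted p = 0.0434) also gave this 1 interaction, and without entinostat replicate 1 at 24 h it passed too (-0.62, adjusted p = 0.0316), whereas WNT9A passed without entinostat replicate 2 at 48 h (-0.58, adjusted p = 0.0212). Leaving out probe sets that may match several transcripts left 9 higher and 8 lower at 24 h, 8 and 8 at 48 h, and 12 and 9 over both times.
Leaving out 1 array at a time gave 17 to 21 higher and 11 to 16 lower at 24 h, 16 to 19 and 12 to 16 at 48 h, 22 to 25 and 16 to 19 over both times, 0 to 1 interactions and 0 to 0 differences between DMSO times. By gene it gave 11 to 13 higher and 8 to 11 lower, and for the further pathway genes 32 to 36 and 21 to 25. Among the named probe sets refitted singly, signs turned for 5 changes near 0 that had not passed, whose ranges without 1 array were -0.056 to 0.055 for FZD2 probe set 2 at 48 h (0.0044 after normexp), -0.18 to 0.0080 for WNT5A probe set 1 and -0.011 to 0.079 for WNT10A at 24 h, and -0.024 to 0.076 for NOTUM and -0.10 to 0.053 for AXIN2 probe set 1 at 48 h. The cause was not tested.
With the replicate number as a block, 38 members passed at 24 h instead of 36, 36 instead of 34 at 48 h and 41 instead of 42 over both times. Among named probe sets the block added calls for FZD1 probe set 1 and CTNNB1 probe set 1 at 24 h and for WNT11, WNT7B probe set 1 and TCF7L2 probe set 3 at 48 h, and ended those of TCF7L2 probe set 6 at 48 h and WNT8A over both times. Some other settings also gave single-time calls to CTNNB1 probe set 1, DVL2 probe set 2, KREMEN2 and WNT7B probe set 1 that were not made otherwise. Same-numbered arrays correlated by -0.0613 to 0.202 in their deviations, and 4 of 6 pairs correlated best with their own number. Subtracting 30 before log2 kept all 42 calls over both times and moved 13 changes by over 1.5 times. Low signal limits what the dim probe sets can show.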
